A study of Mus musculus with 10 samples.

Results

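The liver's bile acid and canalicular transporters were examined as a set of 10 named genes, Slc10a1, Slco1a1, Slco1a4, Slco1b2, Abcb11, Abcb4, Abcc2, Abcg5, Abcc3 and Abcc4. They were picked by gene name, including older names on the array, and not by their values. All 10 were measured among the 18921 genes tested, on 14 probes that all passed the signal filter. RNA came from 10 mouse livers. The 5 wild-type livers (genotype wt/wt, hereafter WT 1 to WT 5) were from 3 males (WT 1, WT 2, WT 5) and 2 females (WT 3, WT 4). The 5 livers with the genotype GCGR ko/ko (KO 1 to KO 5) lack the glucagon receptor gene Gcgr and were from 2 males (KO 1, KO 5) and 3 females (KO 2, KO 3, KO 4). Strain, age, feeding state and the way the gene was deleted are not given in the sources used here. Each array set 1 liver, labelled with Cy5, against a pooled mouse reference RNA from Stratagene, labelled with Cy3, and each value is the log2 ratio of liver over reference. A higher value for 1 gene than for another says nothing about their relative abundance, since it depends on the reference and the probe.

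Bile flow begins in the hepatocyte, which takes bile acids from the blood across its basolateral membrane and pumps them across its apical, canalicular membrane into bile. Uptake carriers of the SLC and SLCO families face the blood, ATP-driven ABC pumps secrete bile acids, phospholipid, sterols and conjugates into the canaliculus, and a further pair of ABC pumps on the basolateral side returns bile acids and conjugates to blood. The nuclear receptor FXR, which senses bile acids, induces the canalicular bile salt pump, while NRF2, CAR and PXR are known inducers of the basolateral pumps. Some mouse uptake carriers are also known to differ between the sexes.

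Promoter sequences of the members (the 250 bases before each transcription start, RefSeq, GRCm38.p6) were matched by symbol for 9 of the 10 genes, all but Abcc3, with 11 starts in all. Searched on both strands for 6 motifs, they held an IR1 element, the inverted repeat that FXR binds (half-sites GNNCA and TGNNC with 1 base between them), at 2 of 11 starts, against 6.6% of 32851 mouse promoters. The matches were GGCCATTGACC, 62 bases before the Abcb11 start, and GGACAGTGACC, 87 bases before the Slco1b2 start. An antioxidant response element, bound by NRF2 (TGACNNNGC), was present at 3 of 11 starts against 10.2% of all promoters. Those were 98 bases before the Abcc2 start and 25 and 23 bases before the 2 Abcc4 starts. A STAT element (GAS, TTCNNNGAA) was present at 2 of 11 starts, those of Slc10a1 and Slco1b2, against 7.02%. No member promoter held a cAMP response element (CRE, TGACGTCA; 1.55% of all promoters), a DR1 element (repeats of AGGNCA with 1 base between them; 0.338%) or an HNF1 element (0.371%). These matches describe letters in the window only. The promoters of Slco1a1 and Slco1a4 are shown for their opposite sex differences, that of Abcc4 for its difference in males, and that of Abcb11 as the known FXR target among the pumps, although Abcb11 did not pass for genotype or sex. Capitals mark the IR1 element in Abcb11 and the antioxidant response element in Abcc4, and neither Slco1a1 nor Slco1a4 held any of the 6 motifs.
Abcb11: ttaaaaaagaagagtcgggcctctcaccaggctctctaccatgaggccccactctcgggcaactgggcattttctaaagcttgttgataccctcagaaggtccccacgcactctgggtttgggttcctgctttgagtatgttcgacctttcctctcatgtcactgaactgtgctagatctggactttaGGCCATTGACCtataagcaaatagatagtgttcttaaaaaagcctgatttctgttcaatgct
Abcc4 start 1: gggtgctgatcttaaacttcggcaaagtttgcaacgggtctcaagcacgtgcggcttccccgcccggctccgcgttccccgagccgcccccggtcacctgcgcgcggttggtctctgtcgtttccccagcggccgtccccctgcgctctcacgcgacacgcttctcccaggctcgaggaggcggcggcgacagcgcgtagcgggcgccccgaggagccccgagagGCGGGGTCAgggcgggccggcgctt
Abcc4 start 2: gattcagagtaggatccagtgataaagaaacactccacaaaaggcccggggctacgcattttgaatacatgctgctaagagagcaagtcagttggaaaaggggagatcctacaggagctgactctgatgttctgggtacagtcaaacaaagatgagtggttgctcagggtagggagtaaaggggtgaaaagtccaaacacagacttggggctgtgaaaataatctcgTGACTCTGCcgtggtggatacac
Slco1a1: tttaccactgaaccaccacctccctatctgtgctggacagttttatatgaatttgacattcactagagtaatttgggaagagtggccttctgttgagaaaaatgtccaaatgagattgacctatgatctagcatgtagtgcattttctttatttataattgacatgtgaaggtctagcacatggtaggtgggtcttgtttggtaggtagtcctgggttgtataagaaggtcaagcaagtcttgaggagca
Slco1a4: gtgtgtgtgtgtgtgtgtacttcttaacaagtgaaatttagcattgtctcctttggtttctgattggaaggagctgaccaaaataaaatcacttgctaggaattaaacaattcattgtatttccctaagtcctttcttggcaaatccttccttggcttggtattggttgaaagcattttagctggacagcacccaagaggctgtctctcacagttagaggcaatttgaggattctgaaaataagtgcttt
All 5 lie on the minus strand and are written 5′ to 3′ along the gene. Their positions are chr2:69342617-69342866 for Abcb11, chr14:118706220-118706469 and chr14:118676932-118677181 for the Abcc4 starts, chr6:141946963-141947212 for Slco1a1 and chr6:141856221-141856470 for Slco1a4.

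The arrays were of uneven brightness, with a median net Cy5 signal of 112 to 134 on slides 1 and 2 and of 58.7 to 78.9 on slides 3 and 4. Slide 1 held WT 1, WT 2, KO 1 and KO 2, slide 2 held KO 3 and KO 4, slide 3 held WT 3, WT 4 and KO 5, and slide 4 held WT 5 alone. Gcgr matched the genotype label in every liver, at -7.66 between KO and WT on the log2 scale (limma adjusted p = 1.12e-13). Sex-linked transcripts matched the sex label in every liver. Mean log2 ratios of 8 hepatocyte markers ranged from 6.97 to 7.62 in WT and from 7.28 to 7.38 in KO livers. In these bulk samples, fewer cells of a type and less RNA per cell cannot be told apart.

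Between genotypes, 1 of the 10 transporters passed the threshold (limma, genotype and sex in the model, Benjamini-Hochberg adjusted p under 0.05 over all genes), the basolateral exporter Abcc3, which was higher in KO livers. Of all genes tested 5.97% passed in either direction, 2.89% passed as higher in KO and 3.08% as lower. The median log2 fold change of the 10 transporters was 0.01, beside -0.00283 over all genes, and 5 of the 10 values were positive. In 1 of the 10 members, again Abcc3, the 5 WT and 5 KO livers did not overlap, as for 6.06% of all genes. Between the sexes, 1 transporter was higher in females, Slco1a4, and 1 was lower, Slco1a1. For sex 11.6% of all genes passed, 5.00% of them higher and 6.59% lower in females as shares of all genes, and 9.29% had livers of both sexes that did not overlap.

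**Figure D1:**
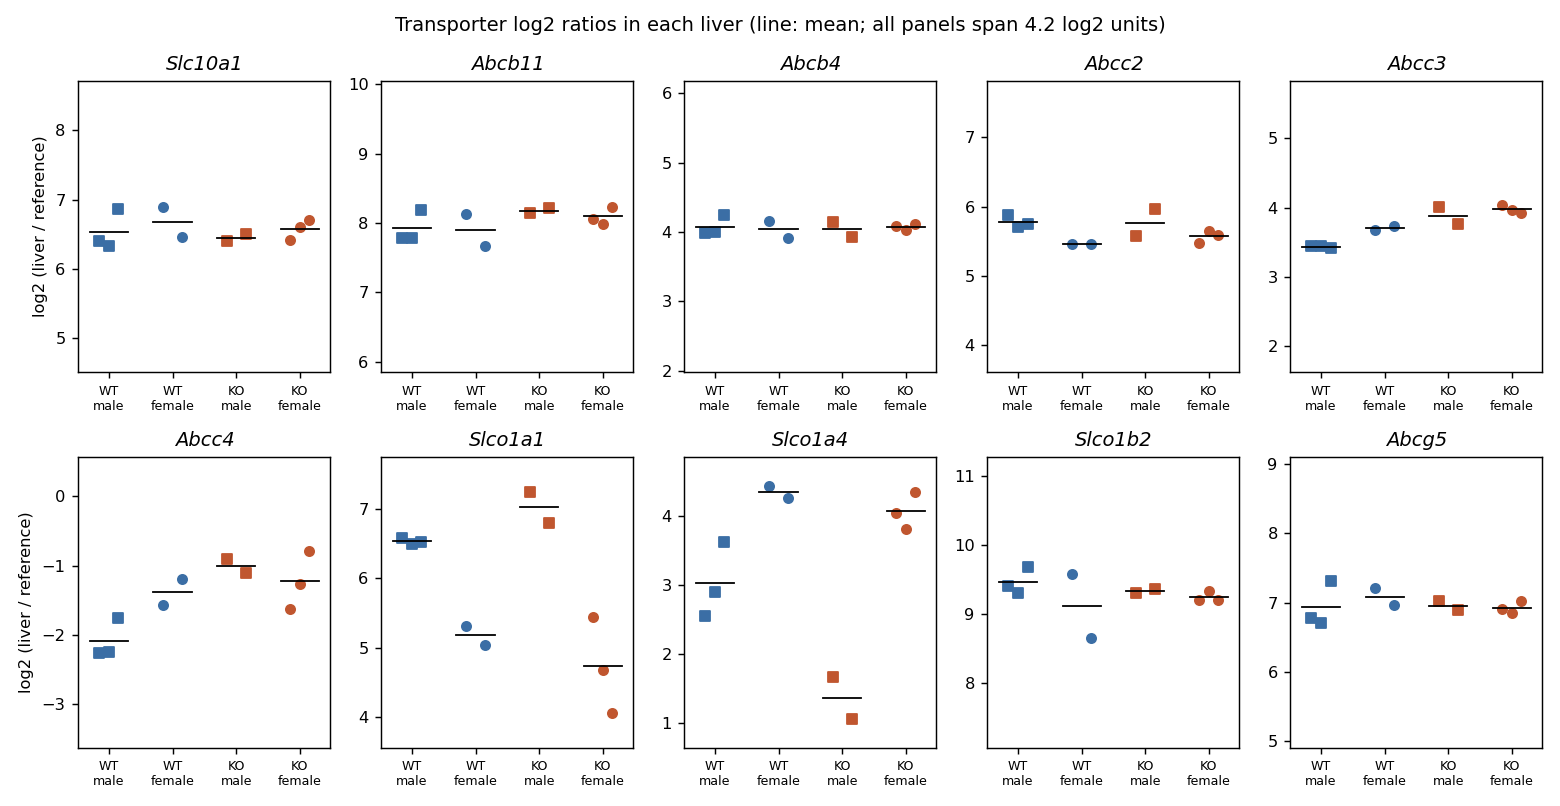
Log2 ratio of liver over reference (y axis) for the 10 transporters in each liver, by genotype and sex (x axis); squares are males, circles are females, blue is WT, orange is KO, and the line is the group mean. Every panel spans the same range, so the wide spread of Slco1a1 and Slco1a4 between the sexes and the small spread of Abcb4 can be compared directly.

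The largest differences among the members were those between the sexes in the uptake carriers Slco1a1 and Slco1a4, whereas the uptake carriers Slc10a1 and Slco1b2 passed for neither genotype nor sex. Slc10a1 encodes NTCP, the sodium-dependent carrier for conjugated bile acids. Its log2 ratios were 6.40, 6.33, 6.89, 6.46 and 6.87 in WT 1 to WT 5, and 6.41, 6.42, 6.60, 6.70 and 6.50 in KO 1 to KO 5. The 5 KO livers lay inside the WT range, and the genotype difference was -0.09 (95% interval -0.35 to 0.17, limma adjusted p = 0.725). Its probe lay at chromosome 12, 78923269 to 78923328, in the older build mm7 that the array files use; no annotation of that build was used, so the exon or UTR a probe lies in is not stated for any member.

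Slco1b2 encodes OATP1B2, a sodium-independent carrier of bile acids, bilirubin and drugs (probe at chromosome 6, 141738135 to 141738194). Its values ran from 8.66 to 9.68 in WT and from 9.20 to 9.37 in KO livers. The low end of the WT range was WT 4 alone, and the KO livers lay inside that range. The genotype difference was -0.000239 (95% interval -0.33 to 0.33, limma adjusted p = 0.999), and the sex difference -0.22 (SE 0.15, adjusted p = 0.424).

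Slco1a1 encodes OATP1A1, a carrier of organic anions that include bile acids and steroid conjugates (main probe at chromosome 6, 141961072 to 141961131). In males its log2 ratios were 6.59, 6.49 and 6.52 in WT 1, WT 2 and WT 5, and 7.25 and 6.79 in KO 1 and KO 5. In females they were 5.31 and 5.04 in WT 3 and WT 4, and 5.44, 4.68 and 4.06 in KO 2, KO 3 and KO 4. Every female liver lay below every male liver. The order of the group means was KO males, WT males, WT females and KO females. The male groups did not overlap with each other, whereas the female groups did.

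The sex difference of Slco1a1 was -1.83 (female minus male, SE 0.25, 95% interval -2.38 to -1.27, limma adjusted p = 0.000681), or 3.55-fold lower in females. Its second probe, 141960693 to 141960751, gave -1.95 (adjusted p = 0.00279 over all probes). With slide as a fixed block the difference was -1.42 (adjusted p = 0.00134); it was -1.33 within slide 1 and -1.62 within slide 3, where both females were WT and the male was KO. The call was lost with the scanner's own log ratio (-1.08, adjusted p = 0.153) and when outlier spots were removed after background correction (-1.42, adjusted p = 0.181). Between genotypes Slco1a1 differed by 0.02 (95% interval -0.53 to 0.57, adjusted p = 0.977).

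Slco1a4 encodes OATP1A4, a carrier of bile acids, cardiac glycosides and other drugs that CAR and PXR are known to induce (probe at chromosome 6, 141858334 to 141858393). Male livers gave log2 ratios of 2.56, 2.90 and 3.61 in WT 1, WT 2 and WT 5, and 1.67 and 1.07 in KO 1 and KO 5. In females they were 4.43 and 4.26 in WT 3 and WT 4, and 4.04, 3.80 and 4.34 in KO 2, KO 3 and KO 4. All 5 females lay above all 5 males. The male KO livers were the lowest of the 10, below all 3 male WT livers, while the KO and WT females overlapped.

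The sex difference of Slco1a4 was 2.01 (female minus male, SE 0.28, 95% interval 1.39 to 2.62, limma adjusted p = 0.000741), or 4.02-fold higher in females, the reverse of Slco1a1. With slide as a fixed block it was 2.31 (adjusted p = 3.29e-05). It was 1.67 within slide 1 and 3.28 within slide 3, where both females were WT and the male was KO. Over all livers the genotype difference, KO minus WT, was -0.97 (SE 0.28, 95% interval -1.58 to -0.36, adjusted p = 0.0668), short of the threshold. It passed with slide as a fixed block (-1.01, adjusted p = 0.0058), with slide as a random block (-1.05, adjusted p = 0.0188), with the Cy5 channel alone (-0.99, adjusted p = 0.0416) and with array weights (-0.88, adjusted p = 0.0467). Within slide 1 it was 0.13 and within slide 3 -3.28, both over livers of unequal sex.

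**Figure D2:**
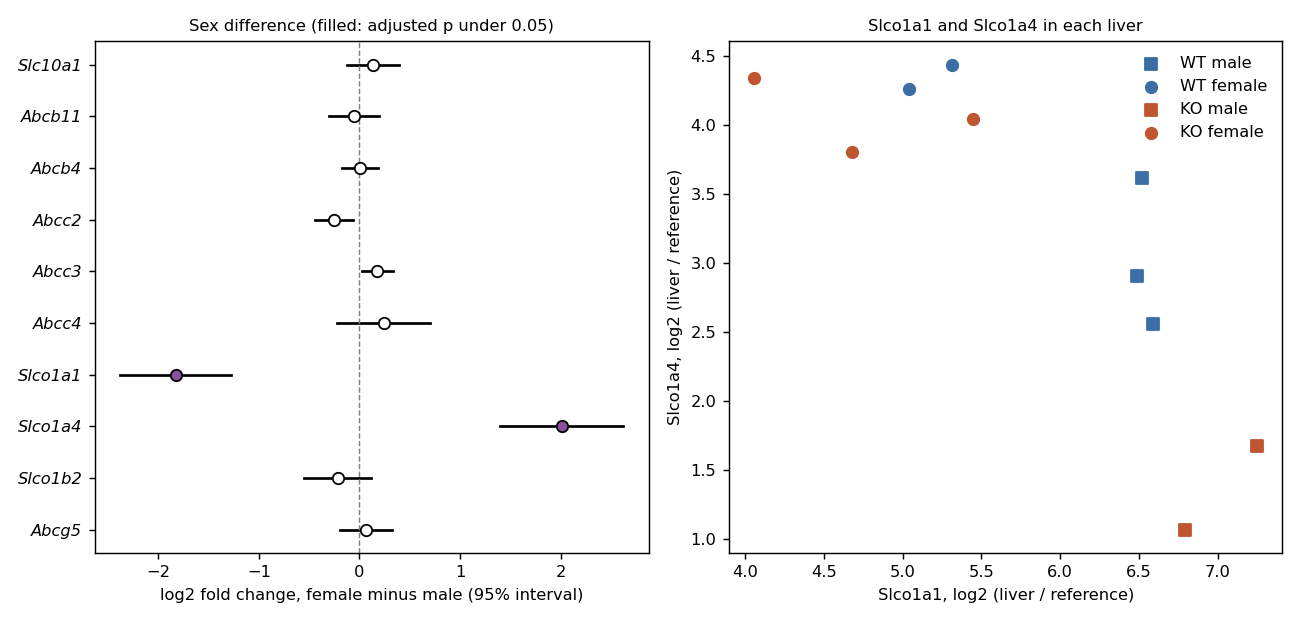
Left, log2 fold change of each transporter, female minus male (x axis), with its 95% interval; filled points have an adjusted p under 0.05. Right, log2 ratio of Slco1a4 (y axis) against Slco1a1 (x axis) in each of the 10 livers, where females lie at the upper left, WT males to the right of them, and the 2 KO males at the lower right.

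The canalicular pumps showed no member past the threshold for genotype or for sex. Abcb11 encodes BSEP, the canalicular bile salt export pump and an FXR target (probe at chromosome 2, 69168882 to 69168941). The 5 WT livers read 7.79, 7.78, 8.14, 7.66 and 8.19 in WT 1 to WT 5, and the KO livers 8.14, 8.05, 7.99, 8.24 and 8.22 in KO 1 to KO 5. KO 4 and KO 5 lay just above the highest WT liver, WT 5, and the other KO livers lay within the WT range. The genotype difference was 0.23 (SE 0.11, 95% interval -0.02 to 0.47, limma adjusted p = 0.278). It was 0.31 within slide 1 and 0.32 within slide 3, both over livers of unequal sex. Read from the Cy5 channel alone, without the ratio to the reference, the genotype difference over all livers was 0.61 and passed (limma adjusted p = 0.00194).

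Abcb4 encodes MDR2, the phosphatidylcholine floppase (main probe at chromosome 5, 8996752 to 8996811). Its values ran from 3.92 to 4.24 in WT and from 3.93 to 4.14 in KO livers, so the KO livers lay inside the WT range. The genotype difference was -0.0014 (95% interval -0.18 to 0.18, limma adjusted p = 0.996), and a second probe, at 8978600 to 8978659, gave 0.12 (SE 0.15).

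Abcc2 encodes MRP2, which secretes glutathione and glucuronide conjugates, bilirubin glucuronide among them (probe at chromosome 19, 43731462 to 43731521). In males its values were 5.89, 5.71 and 5.75 in WT and 5.57 and 5.97 in KO livers. In females they were 5.46 and 5.47 in WT and 5.48, 5.65 and 5.6 in KO livers. The WT sexes did not overlap with each other, whereas KO 1, a male, lay among the KO females. The genotype difference was 0.05 (95% interval -0.14 to 0.24, limma adjusted p = 0.795). The sex difference was -0.26 (SE 0.09, adjusted p = 0.0803), and it passed without KO 1 (-0.35, adjusted p = 0.0206), with slide as a random block (-0.30, adjusted p = 0.0422) and with Cy5 alone (-0.28, adjusted p = 0.0426).

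Abcg5 encodes a subunit of the sterol exporter that it forms with ABCG8 (probe at chromosome 17, 82952711 to 82952770). Its values ran from 6.70 to 7.30 in WT and from 6.85 to 7.03 in KO livers, and the KO livers again lay inside the WT range. The genotype difference was -0.07 (95% interval -0.33 to 0.19, limma adjusted p = 0.797). Its partner Abcg8 differed by 0.09 (SE 0.12, adjusted p = 0.735).

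Of the basolateral exporters, Abcc3 passed for genotype and Abcc4 did not. Abcc3 encodes MRP3, which exports bile acids and glucuronides to blood (main probe at chromosome 11, 94452396 to 94452455). Its log2 ratios were 3.45, 3.45, 3.67, 3.73 and 3.42 in WT 1 to WT 5, and 4.0, 4.04, 3.97, 3.93 and 3.76 in KO 1 to KO 5. Every KO liver lay above every WT liver, with KO 5 and the WT females WT 3 and WT 4 closest to each other. The means were 3.54 ± 0.15 in WT and 3.94 ± 0.11 in KO livers (SD, n = 5 each).

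Abcc3 rose in KO livers by 0.36 (SE 0.07, 95% interval 0.21 to 0.52, limma adjusted p = 0.0129), or 1.28-fold. With slide as a fixed block the difference was 0.39 (adjusted p = 0.0283), and it was 0.57 within slide 1 and 0.06 within slide 3, where the KO liver was male and both WT livers were female. It passed in 19 of 27 alternative analyses, including each one that left out a liver. It did not pass with median centring in place of loess (0.46, adjusted p = 0.164), with the scanner's log ratio (0.23, adjusted p = 0.201) or with the Cy5 channel alone (0.38, adjusted p = 0.0668). Nor did it pass with outlier spots removed after background correction (0.42, adjusted p = 0.110) or as the mean of its probes (0.22, adjusted p = 0.0861). In slides 1 and 2 alone, also counted as not passing, the difference was 0.56. There both WT livers were male and KO 1 was the only KO male. With sex in the model, that value is therefore KO 1 against WT 1 and WT 2. The second probe (94473410 to 94473469), whose net Cy5 signal was 65.5 to 173 against 8417 to 26040 for the main probe, gave 0.08 (adjusted p = 0.730).

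Markers of other cell types were read beside this difference. Of 7 endothelial markers 2 passed as higher in KO livers, Lyve1 (1.47, adjusted p = 0.00675) and Pecam1 (0.26, adjusted p = 0.0458). The mean log2 ratio of the 7 ran from 2.77 to 3.29 in WT and from 3.46 to 3.68 in KO livers, without overlap, and its part in the Abcc3 result was not tested. For bile duct cells, which also express Abcc3, 0 of 8 measured markers passed, with means of -2.01 to -1.70 in WT and -1.86 to -1.46 in KO livers.

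Abcc4 encodes MRP4, which exports bile acids together with glutathione, and also cyclic nucleotides (main probe at chromosome 14, 112885129 to 112885188). In males the log2 ratios were -2.26, -2.25 and -1.75 in WT 1, WT 2 and WT 5, and -0.90 and -1.10 in KO 1 and KO 5. In females they were -1.57 and -1.19 in WT 3 and WT 4, and -1.62, -1.27 and -0.79 in KO 2, KO 3 and KO 4. Both male KO livers lay above all male WT livers, while the females of the 2 genotypes overlapped. The order of the group means was KO males, KO females, WT females and WT males, and of these neighbours WT females and WT males did not overlap.

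Over all livers Abcc4 differed by 0.62 (SE 0.21, 95% interval 0.16 to 1.08, limma adjusted p = 0.113), short of the threshold, from means of -1.80 ± 0.46 in WT and -1.14 ± 0.33 in KO livers (SD, n = 5 each). It passed without KO 2 (0.75, adjusted p = 0.0477). The difference was 1.0 within slide 1 and 0.28 within slide 3, both over livers of unequal sex. A second probe, at 112886540 to 112886599, was dim (net Cy5 28.7 to 97.6, well above background in 8 of 10 livers) and gave -0.01 (adjusted p = 0.985).

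**Figure D3:**
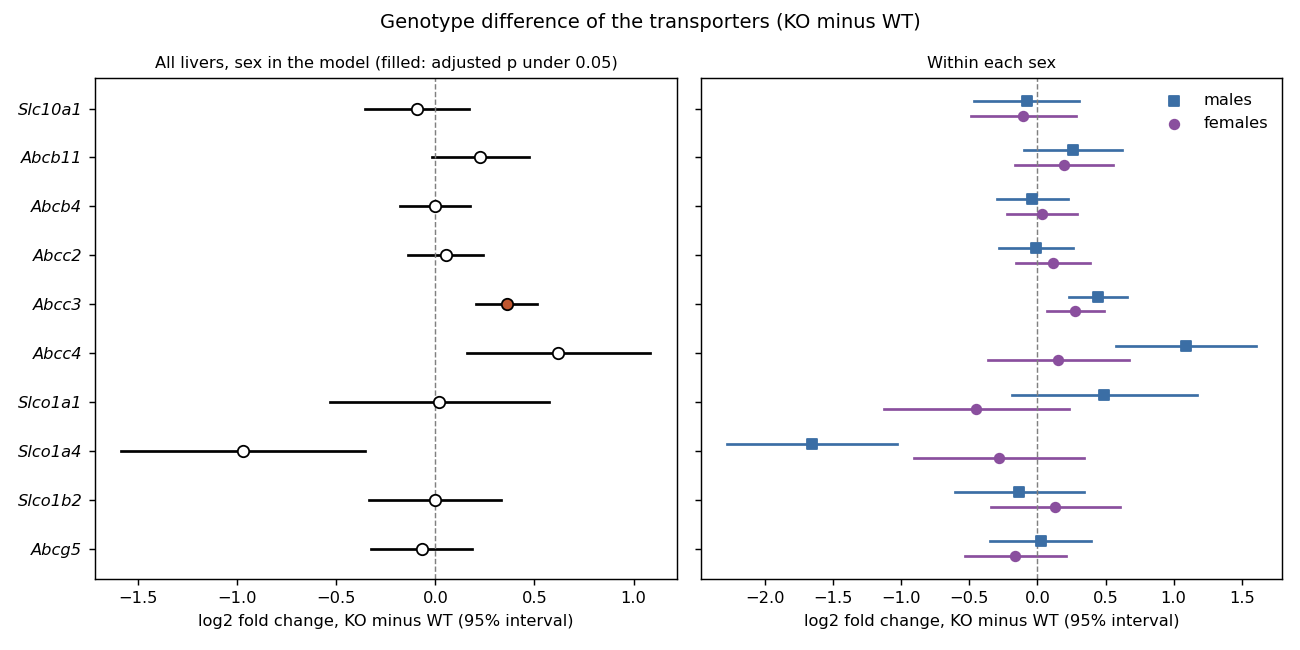
Log2 fold change of each transporter, KO minus WT (x axis), with 95% intervals, over all livers with sex in the model (left; filled points have an adjusted p under 0.05) and within males and females (right). Abcc3 lies to the right of 0 on the left, and the intervals of Abcc4 and Slco1a4 leave 0 in males and include it in females.

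The differences within each sex came from a model with the genotype by sex interaction, fitted to the livers of both sexes together. In it 3 transporters passed between genotypes in males, where 2.36% of all genes passed, and 0 passed in females, where 4.45% did. The male difference rests on 2 KO and 3 WT livers and the female one on 3 KO and 2 WT livers. Their SEs pool the spread of both sexes. Both WT females were on slide 3 and the KO females on slides 1 and 2. Genotype and slide therefore cannot be told apart among females, which also bears on the difference between the sexes. Abcc4 rose in KO males by 1.09 (SE 0.23, limma adjusted p = 0.0407), or 2.13-fold, and differed by 0.15 in females (SE 0.23, 95% interval -0.36 to 0.67, adjusted p = 0.775). Slco1a4 fell in KO males (-1.66, SE 0.28, adjusted p = 0.0147), or 3.15-fold, and differed by -0.28 in females (SE 0.28, 95% interval -0.91 to 0.34, adjusted p = 0.634). Abcc3 rose in KO males by 0.44 (SE 0.10, adjusted p = 0.041), and was 0.28 in females (SE 0.10, adjusted p = 0.135). Males of the 2 genotypes did not overlap in 4 members, and females in 2, against 32.4% and 40.5% of all genes.

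The difference between the sexes in the genotype effect was itself tested, and 0 members passed, beside 0.0317% of all genes. At an unadjusted p under 0.05 there were 2 members, against 12.5% of all genes. For Slco1a4 the effect in females minus that in males was 1.37 (SE 0.40, limma adjusted p = 0.244), for Abcc4 -0.94 (SE 0.33, adjusted p = 0.319) and for Slco1a1 -0.94 (SE 0.43, adjusted p = 0.408), with Slco1a1 at 0.49 in males and -0.45 in females. So a response limited to males was not shown for any member. On slide 1, which held males of both genotypes, KO 1 minus the mean of WT 1 and WT 2 was 1.36 for Abcc4, 0.56 for Abcc3 and -1.06 for Slco1a4. With slide as a fixed block the male comparison is this same difference, since KO 5 and WT 5 were the only males on their slides. Among settings where both KO males bore on the male comparison, the male call of Slco1a4 was lost with outlier spots removed after normexp (-1.28, limma adjusted p = 0.073). Its male difference was -1.36 without KO 5 and -1.96 without KO 1, with 1 KO male left in each. The male call of Abcc4 was lost without WT 1 (limma adjusted p = 0.098), WT 2 (0.119) or the female KO 3 (0.0654). It was also lost with median centring (0.079), outlier spots removed after normexp (0.275) and the mean over probes (0.115). That of Abcc3 was lost without any 1 WT liver or KO female (adjusted p from 0.0518 to 0.110). It was also lost with median centring (limma adjusted p = 0.720), the scanner's log ratio (0.188), outlier spots removed after normexp (0.202) and the mean over probes (0.367). Nearer losses came with limma's trend and robust options (0.083), normexp offset 10 (0.057), the authors' value table (0.053) and no filter on dim probes (0.051). Cy5 alone, slide as a random block, array weights and a stricter signal filter kept it. Leaving out a female did not move the male differences, only their SEs and the adjustment. Without KO 1 the male difference was 0.99 for Abcc4 and 0.32 for Abcc3. Without KO 5 these were 1.19 and 0.57. With 1 KO male left in each case, such values do not show that a male call holds without KO 1 or KO 5.

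The rest of the bile acid pathway was read from lists chosen by function. Of 11 other basolateral carriers measured, 1 rose, 0 fell and the median log2 fold change was -0.08. The gene that rose was Slc51b, the beta subunit of the heteromeric organic solute transporter that exports bile acids to blood and an FXR target. Its log2 ratios were 0.40 to 0.80 in WT livers and 1.24 to 2.21 in KO livers, without overlap. It rose by 1.21 (SE 0.14, limma adjusted p = 0.000559), with 0.99 in males and 1.43 in females. In slides 1 and 2 alone the difference was 0.56, which rested on KO 1, the only KO male there, against WT 1 and WT 2. Its partner Slc51a differed by 0.16 (SE 0.24, adjusted p = 0.758). The exporter Abcc5 was at 0.23 (SE 0.08, adjusted p = 0.133).

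Of 7 other canalicular transporters, 0 rose and 0 fell, with a median of 0.09. Closest to the threshold was Abcg2, the exporter BCRP, at 0.54 (SE 0.16, limma adjusted p = 0.0664). Its log2 ratios were 3.43 to 3.57 in WT males and 3.53 to 3.60 in KO males. In females they were 1.51 to 1.78 in WT and 2.49 to 2.71 in KO livers, where the genotypes did not overlap. The females of the 2 genotypes were on different slides, so genotype and slide cannot be told apart there. The genotype difference was 0.09 in males and 0.99 in females (SE 0.11 each), and the difference between them had an adjusted p of 0.110. Abcg2 was lower in females (-1.38, adjusted p = 0.000174), and its second probe differed between genotypes by 0.58 (adjusted p = 0.0358 over all probes).

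**Figure D4:**
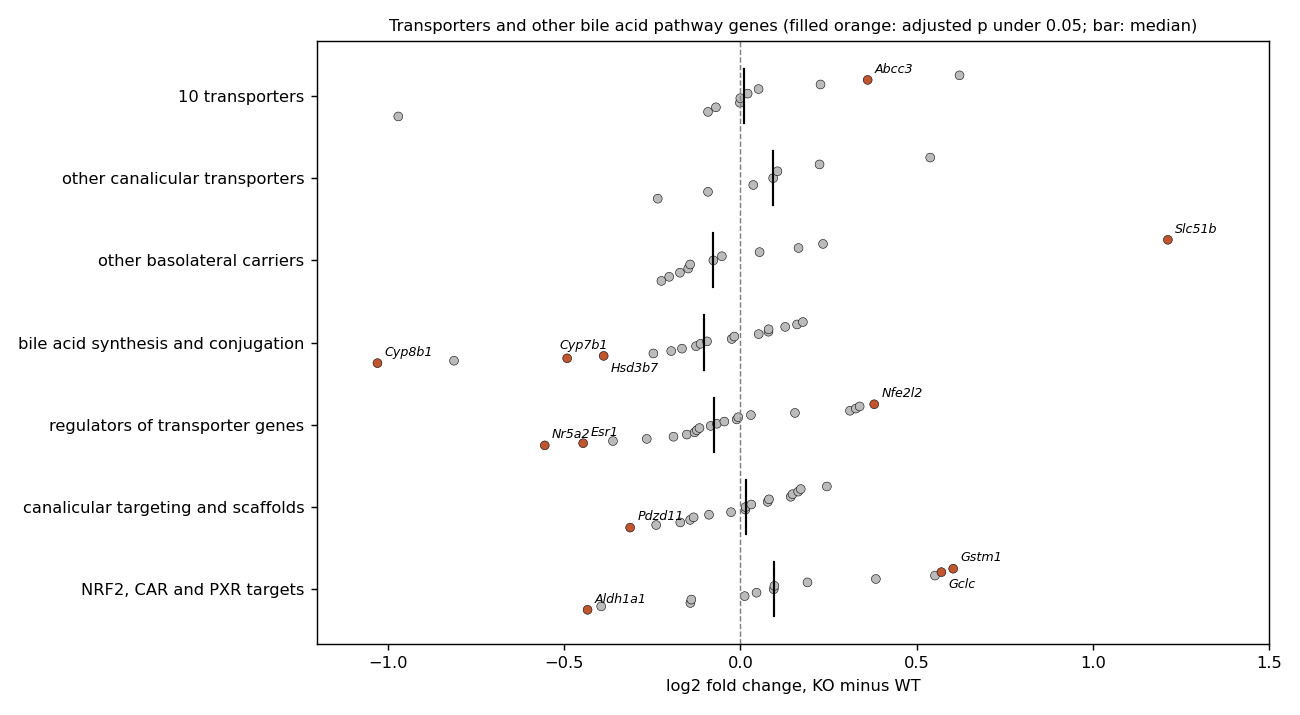
Log2 fold change, KO minus WT (x axis), of the 10 transporters and of each measured gene in 6 pathway lists (y axis); orange points have an adjusted p under 0.05 and bars are list medians. Slc51b lies farthest to the right at 1.21 and Cyp8b1 farthest to the left at -1.03.

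Of 18 measured genes of bile acid synthesis and conjugation, 0 rose, 3 fell and the median was -0.10. Cyp8b1, the sterol hydroxylase that directs synthesis toward cholic acid, ran from 4.46 to 6.06 in WT and from 3.62 to 5.19 in KO livers. Its difference of -1.03 (SE 0.20, limma adjusted p = 0.0135) was the same to 2 decimals in males and females. Hsd3b7 fell by 0.39 (SE 0.09, adjusted p = 0.0269) and Cyp7b1, an oxysterol hydroxylase, fell by 0.49 (SE 0.13, adjusted p = 0.0474). Cyp7a1, the rate-limiting enzyme of the classic pathway, varied widely, from 3.70 to 5.88 in WT and from 2.52 to 4.56 in KO livers, and its difference was -0.81 (SE 0.46, adjusted p = 0.356). A second Cyp7a1 probe gave a like difference with less spread, -0.76 (SE 0.17, adjusted p = 0.0245 over all probes), and passed.

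Of 20 regulators of transporter genes, 1 rose, 2 fell and the median was -0.08. The transcription factor Nfe2l2, which encodes NRF2, rose by 0.38 (SE 0.09, limma adjusted p = 0.0371); of its 3 other probes 1 gave 0.40 (adjusted p = 0.0218 over all probes), and the other two were -0.27 and -0.07 and did not pass. Nr5a2, which encodes LRH-1, an activator of bile acid synthesis genes, fell by 0.55 (SE 0.13, adjusted p = 0.0309), and Esr1, the estrogen receptor gene, fell by 0.45 (adjusted p = 0.0246). Nr1h4, which encodes FXR, differed by 0.03 (SE 0.12, adjusted p = 0.925) and its target Nr0b2, which encodes SHP, by 0.34 (SE 0.27, adjusted p = 0.542).

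Of 13 genes that NRF2, CAR or PXR are known to induce, 2 rose, 1 fell and the median was 0.09. Gstm1, a glutathione transferase, rose by 0.60 (SE 0.10, limma adjusted p = 0.00586) without overlap between the genotypes. Gclc, a gene of glutathione synthesis, rose by 0.57 (SE 0.15, adjusted p = 0.0423). Aldh1a1 fell by 0.43 (adjusted p = 0.0383). Gclm was at 0.38 (SE 0.11, adjusted p = 0.0625), Nqo1 at 0.10 (SE 0.12, adjusted p = 0.703) and Cyp2b10 at -0.14 (SE 0.20, adjusted p = 0.749). Of 17 genes for canalicular targeting and scaffolds 0 rose and 1 fell, Pdzd11 (-0.31, adjusted p = 0.0201), with a median of 0.01. Several of these list calls depended on the setting or on 1 liver: Slc51b passed in 25 of 26 alternative analyses, Gstm1 in 21 and Cyp8b1 in 20, whereas Nfe2l2 passed in 12, Aldh1a1 in 11 and Cyp7b1 in 8.

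The genes whose log2 ratios most resembled each member over the 10 livers were named by Pearson's r, as a description across livers that share genotype, sex and slide. Each r is among the highest of 18853 genes compared, a choice that by itself favours high values. Shared regulation was not tested. For Abcc3 they were Tmem50b (0.98), Hsd17b11 (0.97) and Tpm2 (0.97). For Abcc4 they were Mafg (0.95), Prkci (0.93) and Slc40a1 (0.93). For Slco1a4 they were Fam71e1 (0.96), Sulf2 (0.95) and Scly (0.95), and for Slco1a1 Ctsg, Foxi2 (0.96 each) and Hsd3b5 (0.95), a male-biased steroid dehydrogenase. The first gene was Tab3 (0.95) for Abcb11, Sirt6 (0.93) for Abcb4, Taar4 (0.996) for Abcc2, Trappc3 (0.97) for Abcg5, Capn6 (0.93) for Slc10a1 and Olfr578 (0.98) for Slco1b2.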

How the data were processed

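RNA from 10 mouse livers was measured on 2-colour Agilent arrays (design 014868, 45018 spots, 1639 of them controls, 41174 probes). Agilent Feature Extraction was used, in version 10.7 by the submitters' processing notes (10.7.3.1 in the headers). The authors deposited each spot's mean signal and local background as linear intensity, and a scanner LogRatio, which per the file headers is a log10 ratio of processed Cy5 to Cy3. The authors' value table holds log2 ratios, as its values showed (correlation with those used here 0.9994 to 0.9996, column medians 0.00776 to 0.023). How that table was normalised is not given in these sources.

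Outlier-flagged spots, for signal or for local background, were removed before normexp correction (offset 50). This order was chosen after seeing the data, because on the WT 5 array flagged spots left in moved the 5th percentile of corrected Cy3 from 61.6 to 376. Each array's ratios were then loess-normalised with controls given no weight, and repeated spots of a probe were averaged. A probe was kept where its Cy5 signal was well above background on 4 or more arrays (26933 probes), and each gene took its probe with the highest mean Cy5, which gave 18921 genes. All main probes of the members were well above background in all 10 livers and none was saturated. Names came from the RefSeq table of GRCm38.p6 (22951 probes by accession, 6659 by symbol, 3109 by synonym, 8455 kept as in the files).

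Models were fitted with limma 3.58.1 (R 4.3.3) on genotype and sex, with Benjamini-Hochberg adjustment over all genes and a threshold of 0.05. A model with the genotype by sex interaction gave the differences within each sex, which were added to the alternatives after seeing the data. The fits were tested on simulated data. Livers are described as 5 WT and 5 KO mice, so each was 1 replicate. Same-numbered livers were treated as unpaired. Their residuals correlated at -0.43 to 0.54 after genotype, and at -0.31 to 0.25 after genotype and sex. After genotype only the pair of unlike sex, WT 2 and KO 2, was negative. These values therefore cannot decide whether the livers were paired. Probe sequences were not used here, so cross-hybridisation between members of the Slco1a family was not tested. The members and lists were chosen with earlier results of these data known. Named genes were the members, the 3 genes most correlated with each, every list gene past the threshold, and up to 4 others of each list with the smallest p. A few partner genes and well-known regulators (Slc51a, Abcg8, Cyp7a1, Nr1h4, Nr0b2, Nqo1, Cyp2b10) were named for their role, after values were seen. Some list genes are not reported here.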

Additional observations from a re-analysis of the deposited data

Results flagged for a closer look

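The genotype effect differed between the sexes in Elovl3, a fatty acid elongase gene known to be higher in male mouse liver, which was singled out after its values were seen. Its log2 ratios were 2.54 to 2.91 in WT females and 4.92 to 5.12 in KO females. In males they were 6.11 to 6.33 in WT and 5.88 to 5.97 in KO livers. KO minus WT was 2.31 in females and -0.29 in males (SE 0.12 each), and the difference between these effects was 2.60 (limma adjusted p = 0.000411). It passed in 20 of 23 alternative analyses, and not with slide as a fixed block (2.61, adjusted p = 0.103), with the scanner's log ratio (1.44, adjusted p = 0.169) or with outlier spots removed after normexp (2.27, adjusted p = 0.520). Both WT females were on slide 3 and the KO females on slides 1 and 2. No transporter met a rule for a closer look.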

How the results depend on the processing

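Over 62 results for members and pathway genes, 1517 alternative values had a test. Of these 1350 kept their side of the threshold, 146 of them with a change of sign of a value that did not pass; 155 no longer passed, 12 newly passed and 0 of the called values reversed. With all data 1129 genes passed for genotype, 2193 for sex and 6 for the interaction, and 1, 2 and 0 members did; 3 members passed for genotype in males and 0 in females. Leaving out 1 liver gave 593 to 1183 genes for genotype (593 without WT 3, 600 without KO 1, 669 without KO 4), 1555 to 2514 for sex and 2 to 115 for the interaction (115 without KO 1), with 1 to 2 members for genotype, 2 to 3 for sex, 0 for the interaction, 0 to 2 in males and 0 in females.

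Median centring in place of loess gave 281 genes and 0 members for genotype, 923 genes for sex and 1 member in males, and 72.2% of the genotype calls were higher in KO, against 48.5% in the main analysis. Removing outlier spots after normexp gave 339 genes (58.7% higher) and 0 members for genotype, 790 genes and 1 member for sex, 1 gene for the interaction and 0 members in males. The scanner's log ratio gave 0 members for genotype, 1 for sex and 1 gene for the interaction. The Cy5 channel alone gave 2 members for genotype, 4 for sex, 14 genes for the interaction and 1 member in females. The mean over probes gave 0 members for genotype and 1 in males. Slide as a fixed block gave 2 members for genotype. Its male comparison rested on KO 1 as the only KO liver, so its counts by sex are not given. Slide as a random block gave 2 members for genotype, and array weights 2 members and 10 interaction genes. Without a sex term 620 genes passed for genotype. Slides 1 and 2 alone, an analysis chosen after seeing the data, gave 255 genes and 0 members for genotype and 1001 genes for sex, from fewer livers. The causes were not tested.

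The replicate block, on numbers not known to pair the livers, gave 305 genes and 0 members for genotype and 156 genes and 0 members for sex. In it Abcc3 differed by 0.35 (limma adjusted p = 0.128), Slco1a1 between the sexes by -0.88 (0.767) and Slco1a4 by 2.14 (0.426).

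Of the 11 pathway genes past the threshold, Slc51b passed in 25 of 26 alternatives, Gstm1 in 21, Cyp8b1 in 20, Esr1 in 18, Pdzd11 in 17, Hsd3b7 in 16, Nr5a2 in 15 and Gclc in 13. Arrays on slides 3 and 4 were dimmer, and 5 livers a genotype limit what small differences can be detected.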

Other observations

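Several bile acid enzymes differed between the sexes. Values are log2 fold changes, female minus male, by limma over all 10 livers. Cyp39a1, an oxysterol hydroxylase, was higher in females (2.14), as was Akr1d1, a steroid reductase (0.80). Cyp7b1 (-1.53), Cyp46a1 (-1.17) and Cyp8b1 (-0.88) were lower in females, as was the bile acid carrier Slc10a2 (-1.12), a bile duct cell marker in liver. Cyp2b10, a CAR target, was higher in females (3.05). Of 11 measured genes known for sex bias in mouse liver, 5 were higher and 3 lower in females, and 0 passed for genotype over all livers, though Elovl3 differed between the sexes in its genotype effect.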
